A study of Mus musculus with 4 samples.

Results

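The 6 genes described here act at the start of meiotic recombination, in the formation and early handling of programmed DNA double-strand breaks: Prdm9, Hells, Spo11, Mei1, Mei4 and Trip13. They were chosen by name for this function, and not by any measured value, from the 22367 protein-coding genes of the GENCODE annotation of mm9. The data are regions of enrichment of H3K36me3, the trimethylation of lysine 36 on histone H3, from ChIP-seq of mouse spermatocytes at 14 dpp (days post-partum). B6 is the inbred strain C57BL/6J. KI is the strain B6.Cg-Prdm9<tm1.1Kpgn>/Kpgn, a knock-in on the B6 background in which the last exon of Prdm9, which encodes the zinc fingers that bind DNA, comes from the CAST/EiJ allele. Each strain had 1 H3K36me3 sample and 1 input sample, and the labels give 15 dpp for the inputs. The authors merged the replicate reads of a strain before calling peaks, so each strain has 1 list of broad regions and 1 list of refined peaks, which are narrow stretches of additional enrichment inside the broad regions. The lists hold positions without counts or heights, so the depth behind a region is unknown, no value has a replicate error, and differences between the strains were not tested.

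In meiotic prophase, PRDM9 binds DNA at hotspots and methylates nearby histones, the topoisomerase-like protein SPO11 then cuts both strands, and the cuts are repaired from the homologous chromosome. H3K36me3 has a separate and more general source: the methyltransferase SETD2 travels with elongating RNA polymerase II and leaves the mark over the bodies of transcribed genes, with little at their 5′ ends. A broad region over a gene is therefore the usual form of this mark on a transcribed gene, and a refined peak is a local addition to it.

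The marker genes of the labelled cell type were covered in both strains. Of 8 germ cell genes, 6 were covered to at least 90% in each strain, and the lowest of the 8 was at 85.2% in B6 and at 77.4% in KI. Markers of Sertoli cells, the supporting cells of the seminiferous tubule, differed by strain. None of 6 reached 90%. In B6 they ranged from 3.24% to 71.7% with a median of 35.9% and none at 0, and in KI the highest was at 8.49% and the median at 2.42%, with Sox9 and Clu at 0. Coverage was lower in KI for 5 of the 6, and Fshr was the exception, at 3.24% in B6 and 4.5% in KI. Of 6 Leydig cell markers 4 were at 0 in each strain, but Star was covered from end to end in both. Of the 2 peritubular markers, Acta2 was at 0 in both strains and Myh11 at 15.9% (B6) and 9.17% (KI). Of 6 markers from outside the testis 5 were at 0 in each.

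Broad H3K36me3 regions lay over all 6 genes in both strains, although over Mei4 in KI the merged regions were short and broken up. Coverage, the share of the bases of the annotated gene that fell in a broad region, was at least 90% for 4 of the 6 genes in B6 and for 4 of the 6 in KI, against 26.5% of all protein-coding genes in B6 and 23.6% in KI. The 4 genes were the same in the 2 strains, namely Prdm9, Hells, Mei1 and Trip13. The median coverage of the 6 genes was 96.3% in B6 and 94.1% in KI, and that of all protein-coding genes was 21.5% and 18.4%. All 6 genes are longer than 10 kb, and among the 13506 annotated coding genes that are 10 kb or longer the share covered to 90% was 34.9% in B6 and 30.5% in KI. Spo11 and Mei4 fell below 90%, and for both the annotated gene reaches beyond the transcript with the longest coding sequence, called the main transcript from here on. Over the main transcripts, the coverage of Spo11 was 95.3% in both strains, while that of Mei4 was 86.7% in B6 and 47.7% in KI. This span was chosen after the data were seen, and with the longest protein-coding transcript in its place Mei4 stayed at 42.9% and 24.1%.

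**Figure D1:**
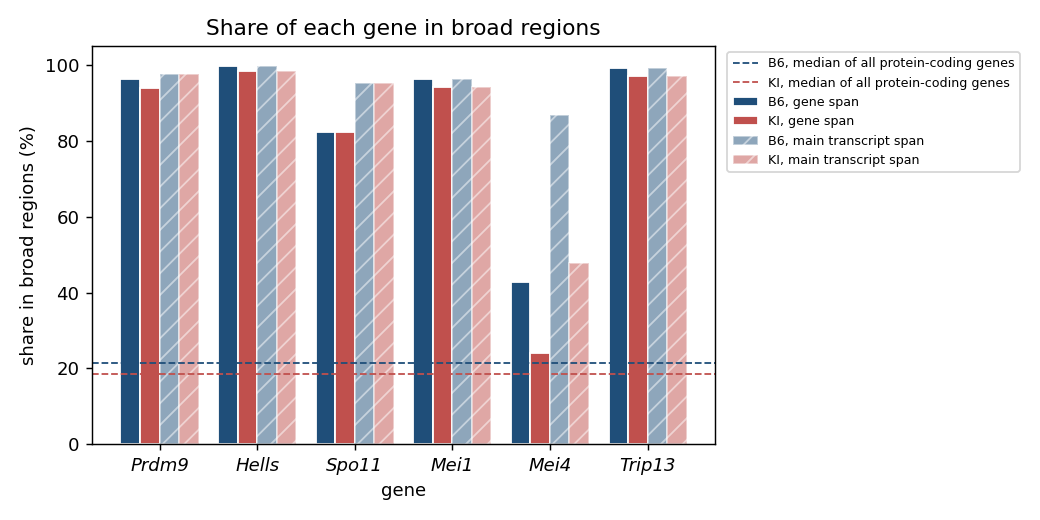
Share of each gene, in percent of its bases, that lay in broad H3K36me3 regions of B6 (blue) and KI (red), for the annotated gene (solid bars) and for its main transcript (hatched bars, a span chosen after the data were seen). Dashed lines are the medians of all protein-coding genes, 21.5% in B6 and 18.4% in KI. Only Mei4 has a wide step between the strains, from 42.9% in B6 to 24.1% in KI over the gene.

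Refined peaks were few outside Mei4. The 6 genes held 37 of the 58502 refined peaks of B6 and 39 of the 72692 of KI, of which 28 and 27 were in Mei4. All 6 genes held a refined peak in B6, and 5 of 6 did in KI, where Trip13 held none. Every broad region was listed with at least 1 refined peak, so these counts largely follow the number of listed regions, and not the share covered. Mei4 had 24 listed regions in B6 and 23 in KI, Mei1 had 2 and 6, and the other 4 genes had 1 each in both strains. Of all protein-coding genes, 52.7% held a refined peak in B6 and 54.9% in KI. Most of these peaks did not coincide between the strains. In B6, 6 of the 37 peaks (16.2%, Wilson 95% interval 7.65% to 31.1%) shared at least 1 base with a KI refined peak, and in KI 7 of 39 did with a B6 peak (17.9%, 8.98% to 32.7%). The same shares over refined peaks in all protein-coding genes were 19.0% in B6 and 15.9% in KI, so the 6 genes were near the background. These intervals cover the number of peaks only, and neighbouring peaks of a gene are not independent of each other.

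A minority of the refined peaks touched an exon, as among all protein-coding genes. In B6, 4 of 37 peaks touched an exon of any transcript (10.8%, 4.29% to 24.7%), and in KI 7 of 39 did (17.9%, 8.98% to 32.7%). Over all protein-coding genes the shares were 19.9% and 18.9%. The KI share was thus near the background and the B6 share was lower than it. The intervals treat peaks as independent, which peaks of a gene are not, so they cannot weigh either share against the background. The KI count rests on peaks that only reach into an exon, since 2 KI peaks and 3 B6 peaks had their midpoint in one, which turns the order of the strains. The other 33 B6 peaks and 32 KI peaks lay wholly outside exons. Both shares are largely those of Mei4, where 2 of 28 B6 peaks and 2 of 27 KI peaks touched an exon. In Mei1 it was 0 of 3 in B6 and 4 of 9 in KI, in Prdm9 1 of 2 and 1 of 1, and in Spo11 1 of 2 and 0 of 1. The peaks in Hells and Trip13 touched none. The median width of the peaks in the 6 genes was 304 bp in B6 and 296 bp in KI, close to the 313 bp and 319 bp of all refined peaks. Their median GC content was 37.7% in B6 and 39.5% in KI, below the medians of 41.9% and 42.9% over all refined peaks. Both medians are largely those of Mei4, at 37.1% and 37.0%, while the KI peaks of Mei1 had a median of 48.7% and the KI peak of Spo11 was at 53.0%.

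Prdm9 encodes the histone methyltransferase that places hotspots. The gene (ENSMUSG00000051977.7) lies on the minus strand at chr17:15680043-15701318 of mm9, 21.3 kb with 9 annotated transcripts. Its coverage was 96.4% in B6 and 94.0% in KI, higher than that of 84.8% and 82.3% of protein-coding genes. In each strain a single unbroken region covered it, of 20500 bp in B6 and 20000 bp in KI. The regions began 318 bp (B6) and 818 bp (KI) into the annotated gene, in both cases before the start of the main transcript, and both stopped 458 bp short of the 3′ end. All 2541 coding bases of the main transcript were covered in both strains.

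The last exon of Prdm9 is the segment exchanged in KI. In the annotation it is exon 10 of the main transcript, at chr17:15680043-15682324 with a length of 2282 bp, of which 79.9% was covered in B6 and in KI. Its 1385 coding bases, at chr17:15680940-15682324, were covered completely in both strains, and the 458 uncovered bases were the same ones. No refined peak of either strain lay in it, and the nearest were 9160 bp away in B6 and 9866 bp away in KI. Reads of both strains were aligned to the B6 reference, so the CAST/EiJ copy of this exon in KI is seen only through reads that aligned to the B6 sequence.

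The refined peaks of Prdm9 lay in the middle of the gene and differed between the strains. B6 had 1 peak of 285 bp that reached exon 8, at chr17:15691484-15691768, and 1 of 543 bp in intron 4, at chr17:15695249-15695791. KI had 1 peak of 553 bp over exons 6 and 7, at chr17:15692190-15692742. The KI peak lay between the B6 peaks, 422 bp from the nearer one. All 3 peaks were inside the broad region of the other strain. The sequences of the nearer pair are printed to show what lay under each, in mm9 on the minus strand, the strand of the gene, with exon bases of the main transcript in capitals. The B6 peak holds 68 bases of exon 8, the KI peak is given by its middle 300 bases (chr17:15692316-15692615) with 93 bases of these exons. Bases in lower case lie in no exon of the main transcript, although in the KI peak some of them belong to exons of other annotated transcripts: 391 of its 553 bases are exonic when all transcripts count, and 235 in the main transcript.
Prdm9 B6 peak: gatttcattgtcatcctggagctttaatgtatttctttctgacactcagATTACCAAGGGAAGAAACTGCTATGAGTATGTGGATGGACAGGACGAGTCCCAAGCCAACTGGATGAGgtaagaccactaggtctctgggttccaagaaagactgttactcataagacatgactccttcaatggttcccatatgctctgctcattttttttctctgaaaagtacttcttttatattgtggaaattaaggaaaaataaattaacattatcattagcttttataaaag
Prdm9 KI peak, middle 300 bases: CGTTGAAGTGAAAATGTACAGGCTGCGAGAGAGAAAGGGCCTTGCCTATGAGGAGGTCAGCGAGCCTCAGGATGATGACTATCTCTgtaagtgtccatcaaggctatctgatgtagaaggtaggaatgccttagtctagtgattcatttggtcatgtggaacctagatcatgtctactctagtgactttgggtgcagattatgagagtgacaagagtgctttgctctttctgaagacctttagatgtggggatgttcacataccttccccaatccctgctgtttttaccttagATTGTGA

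**Figure D2:**
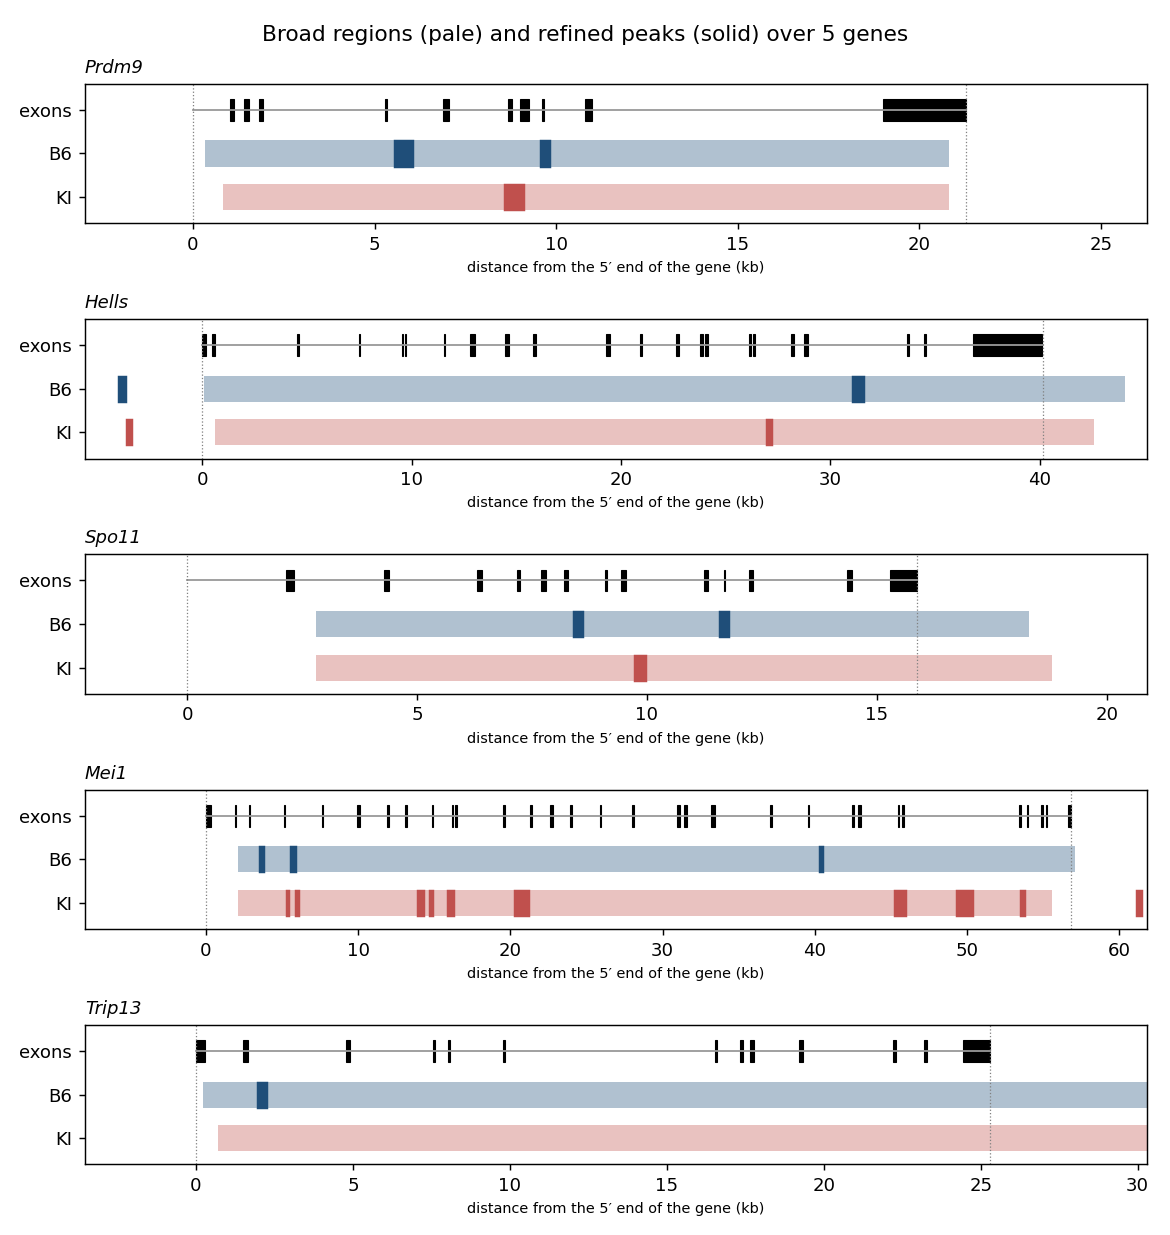
Maps of Prdm9, Hells, Spo11, Mei1 and Trip13 by distance from the 5′ end of the gene in kb, with the exons of the main transcript in black, merged broad regions in pale and refined peaks in solid colour (B6 blue, KI red). Dotted lines mark the ends of the gene. The regions of both strains begin a little inside the gene and end near or past its 3′ end, while the refined peaks of the strains differ in place, and the regions of Trip13 run on beyond the right edge of its panel.

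Hells encodes a chromatin remodelling helicase of the SNF2 family that acts with PRDM9 in opening chromatin at hotspots. The gene (ENSMUSG00000025001.5) lies on the plus strand at chr19:39005405-39045541, 40.1 kb long, and was the most completely covered of the 6 in B6. Coverage was 99.8% in B6 and 98.5% in KI. Only the first 96 bp in B6 and the first 596 bp in KI were uncovered, and this start held all of the difference, so that introns were covered completely in both strains. The coding sequence of 2463 bases was complete in B6 and lacked a part at the 5′ end in KI, where 2360 bases were covered. The regions ran 3959 bp (B6) and 2459 bp (KI) past the 3′ end. Each strain had 1 refined peak in the gene, of 562 bp in intron 19 in B6 and of 276 bp in intron 17 in KI, 3811 bp apart. A further pair outside the gene did coincide. Counted from the 5′ end, with negative distances before it, a B6 peak of 387 bp at -3.84 kb and a KI peak of 288 bp at -3.53 kb shared 27 bp. No other gene is annotated within 5000 bp of Hells.

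Spo11 encodes the protein that makes the breaks. The gene (ENSMUSG00000005883.9) lies on the plus strand at chr2:172803201-172819077 and is the shortest of the 6, at 15.9 kb. Its coverage was 82.4% in both strains, and the regions of the strains began at the same base. The uncovered 2800 bp were all at the 5′ end. The main transcript Spo11-001 starts inside that stretch, at base 172805350, and only its first 651 bp were uncovered. Of its 1188 coding bases 1057 were covered in each strain. At the 3′ end the regions passed the gene by 2423 bp in B6 and 2923 bp in KI.

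Of the 3 refined peaks in Spo11, 2 belonged to B6 and 1 to KI, and none coincided. The KI peak, of 270 bp in intron 8, lay between the B6 peaks, which were 209 bp wide in intron 6 and 233 bp wide over exon 10. It was 1115 bp from the first and 1575 bp from the second. With 53.0% GC the KI peak was richer in G and C than the B6 peaks, at 48.8% and 42.9%. The 3 peaks are printed whole, in order along the gene, in mm9 on the plus strand, to show how the peaks of the strains alternated. They lie at chr2:172811594-172811802, chr2:172812917-172813186 and chr2:172814761-172814993. Capitals mark the 38 bases of exon 10 of Spo11-001 in the second B6 peak. When all transcripts count, all 233 bases of that peak are exonic. The other 2 peaks have no exon base.
Spo11 B6 peak, intron 6: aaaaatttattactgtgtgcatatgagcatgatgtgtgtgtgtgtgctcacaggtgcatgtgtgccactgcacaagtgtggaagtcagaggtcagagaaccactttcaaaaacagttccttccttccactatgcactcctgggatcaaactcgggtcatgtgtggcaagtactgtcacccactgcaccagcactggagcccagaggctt
Spo11 KI peak, intron 8: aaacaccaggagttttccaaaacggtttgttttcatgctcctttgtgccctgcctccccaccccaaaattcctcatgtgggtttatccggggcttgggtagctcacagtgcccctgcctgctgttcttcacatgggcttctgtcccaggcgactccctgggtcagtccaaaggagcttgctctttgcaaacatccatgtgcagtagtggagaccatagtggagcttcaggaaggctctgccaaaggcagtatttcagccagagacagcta
Spo11 B6 peak, exon 10: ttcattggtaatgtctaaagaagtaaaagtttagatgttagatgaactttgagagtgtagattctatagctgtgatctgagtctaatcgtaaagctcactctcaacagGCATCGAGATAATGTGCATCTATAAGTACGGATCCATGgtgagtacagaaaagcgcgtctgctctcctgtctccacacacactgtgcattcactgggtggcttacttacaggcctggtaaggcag

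Mei1 encodes a protein needed for break formation in the mouse. The gene (ENSMUSG00000068117.3) lies on the plus strand at chr15:81900426-81957244, with 1 annotated transcript of 31 exons over 56.8 kb. Coverage was 96.3% in B6 and 94.2% in KI. The first 2075 bp were uncovered in both strains, the longest such start among the main transcripts of the 6 genes in B6. At the 3′ end the strains parted, since the B6 region passed the gene by 256 bp and the KI region stopped 1244 bp short of it. Of 3972 coding bases, 3539 were covered in B6 and 3496 in KI. The merged region was unbroken in each strain, but it was made of 2 listed regions in B6 and of 6 in KI, which overlapped at their ends.

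Mei1 was the only gene of the 6 with more refined peaks in KI than in B6. B6 had 3, of 284 bp, 354 bp and 312 bp, all in introns (3, 4 and 22). KI had 9, from 189 bp to 1137 bp wide, of which 4 touched exons 9, 10, 25 with 26, and 27. The KI peaks had a median GC content of 48.7%, against 41.2% for the B6 peaks, and up to 18 CpG in a peak against up to 4. A single pair coincided, in intron 4. The B6 peak at chr15:81905962-81906315 and the KI peak at chr15:81906245-81906509 shared 71 bases, which stand in capitals in the 300 bases around them printed here from the plus strand of mm9 (chr15:81906130-81906429).
Mei1, intron 4: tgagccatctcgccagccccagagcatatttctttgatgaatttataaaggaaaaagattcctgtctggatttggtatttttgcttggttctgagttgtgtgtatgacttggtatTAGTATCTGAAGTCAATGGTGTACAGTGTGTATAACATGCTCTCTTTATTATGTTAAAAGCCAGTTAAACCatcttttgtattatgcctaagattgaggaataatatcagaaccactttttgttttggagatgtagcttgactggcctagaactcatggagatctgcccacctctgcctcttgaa

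Ccdc134, a neighbour on the same strand, starts 1107 bp after the end of Mei1. Its coverage was 99.0% in B6 and 95.5% in KI. The region over Mei1 ended before it in both strains, at base 81957500 in B6 and at base 81956000 in KI. On the other side, 4930407I10Rik ends 3457 bp before Mei1 and was at 0.0% in both strains.

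Trip13 encodes an AAA+ ATPase that remodels HORMA-domain proteins of the chromosome axis and is needed for the later handling of breaks. The gene (ENSMUSG00000021569.8) lies on the minus strand at chr13:74049910-74075215, 25.3 kb long. Coverage was 99.2% in B6 and 97.2% in KI. The region began 215 bp into the gene in B6 and 715 bp in KI. It ran far past the 3′ end, by 12409 bp in B6 and 14909 bp in KI, the longest such extension among the 6 genes. Its introns were covered completely in B6 and to 98.1% in the other strain. Of the 1296 coding bases, 1267 (B6) and 1204 (KI) were covered.

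The only refined peak inside Trip13 was a B6 peak of 291 bp in intron 2, at chr13:74072967-74073257. The KI region had its single refined peak outside the gene, 5945 bp past the 3′ end. Trip13 lies head to head with a gene on the opposite strand: Brd9, which encodes a bromodomain protein, begins 70 bp away and was covered to 99.1% in both strains. The 70 bases between the starts (chr13:74075216-74075285 of mm9, minus strand, read towards Trip13) are printed because they are the whole gap between the genes. They have 10 CpG, in capitals, and 72.9% GC.
Trip13 to Brd9: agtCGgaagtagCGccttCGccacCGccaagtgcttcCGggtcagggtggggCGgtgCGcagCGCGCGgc

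At the 5′ ends, the uncovered start was longer in KI for 4 of the 6 genes and equal in Spo11 and Mei1. The difference was 500 bp in Prdm9, Hells and Trip13, which is 1 step of the grid on which broad regions start, and 1000 bp in Mei4. Among the 4 genes covered to at least 90% in both strains, the start was longer in KI for 3 and equal for 1. For the 5017 protein-coding genes covered that far in both strains, 23.3% had the longer uncovered start in KI and 63.8% had equal ones. In B6 the median uncovered start of those genes was 657 bp, with a middle range from 274 to 1066 bp. In KI the median was 693 bp and the middle range ran from 284 to 1178 bp. By that measure Hells and Trip13 in B6 were below the middle range, and Mei1 was above it in both strains.

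The DNA at these starts differed in its CpG content. In windows from 250 bases before to 50 bases after the start of the main transcript, the motif CG occurred 34 times in Trip13, 28 in Hells, 17 in Spo11, 16 in Mei4, 12 in Mei1 and 9 in Prdm9. The median over 22220 protein-coding genes, taken at the annotated start of each gene, was 11. The window of Trip13 thus held more than those of 91.0% of genes, that of Hells more than 83.4% and that of Prdm9 more than 43.7%.

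Mei4 encodes a partner of REC114 that sits on the chromosome axis and is needed for break formation. It was the gene in which the strains differed most. The gene (ENSMUSG00000043289.5) lies on the plus strand at chr9:81757277-82099614 and, at 342 kb, is by far the longest of the 6. The main transcript Mei4-001 has 5 exons and ends at base 81921098, 164 kb from the 5′ end, whereas another transcript, Mei4-004, continues to the end of the gene. Coverage was 42.9% in B6 and 24.1% in KI, higher than that of 55.3% and 51.9% of protein-coding genes. Both values depend on where the mark stops, since nearly all of it lay before the end of Mei4-001. The KI value depends also on gaps inside that transcript, of 83.5 kb in total against 20.5 kb in B6.

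Up to the end of Mei4-001, broad regions covered 142 kb in B6 and 78.1 kb in KI, which is 86.7% and 47.7% of that stretch. The regions of B6 formed 8 blocks with a median of 19.2 kb and a longest block of 42.5 kb. Those of KI formed 17 blocks, with a median of 3.5 kb and a longest block of 9.5 kb. These blocks are listed regions after merging. Over the whole gene 24 regions were listed in B6 and 23 in KI, so the strains differed in how far listed regions joined, and little in their number. Thus the merged KI regions were more broken up, and not shifted: over the whole gene 76500 bp were covered in both strains, 70500 bp in B6 only and 6000 bp in KI only. In the other 5 genes no base was covered in KI only, and B6 alone covered 0 bp in Spo11, 500 bp in Prdm9, Hells and Trip13, and 1244 bp in Mei1.

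Between its first and last broad region, the gaps of Mei4 held no exon. Inside Mei4-001, B6 had 7 gaps that added up to 20.5 kb, of 0.5 to 5.5 kb each. KI had 16 gaps that added up to 83.5 kb, the longest of which, 20000 bp at chr9:81898001-81918000, lay before the last exon. At chr9:81801001-81806500 a gap of 5.5 kb had the same ends in both strains. All 1167 coding bases of Mei4-001 were covered in both strains, although a much smaller share of its introns was covered in KI. The exon bases without coverage were the 248 of the first exon and 1451 near the end of the gene, in the last exon of Mei4-004.

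**Figure D3:**
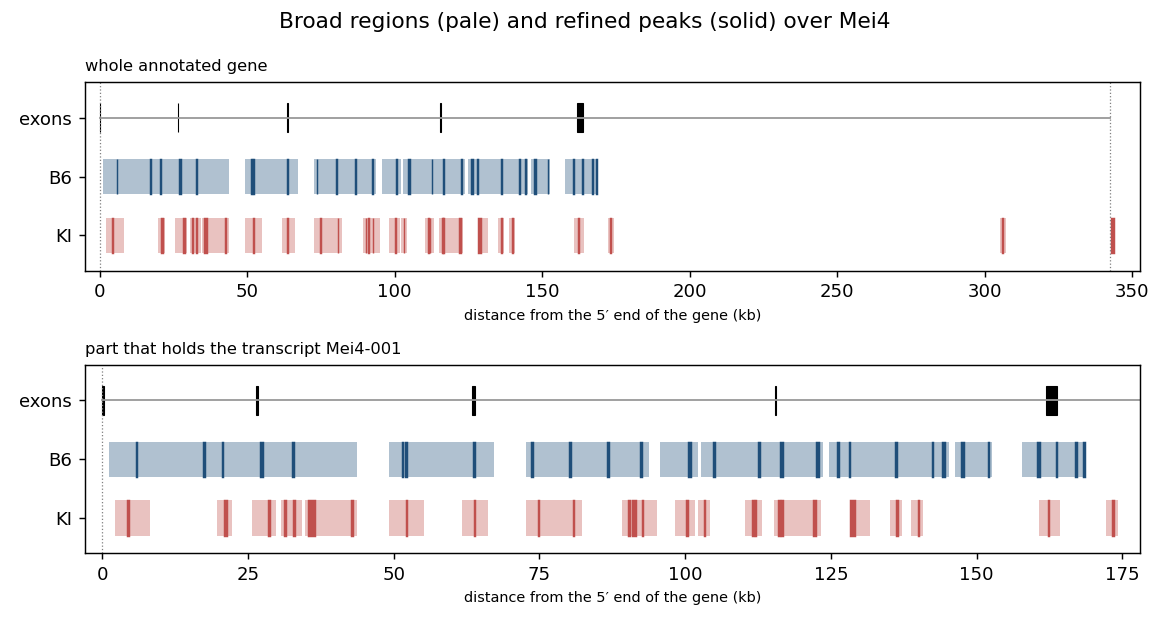
Map of Mei4 by distance from its 5′ end in kb, for the whole annotated gene (upper panel) and for the part around the main transcript Mei4-001 (lower panel), with exons of that transcript in black, merged broad regions in pale and refined peaks in solid colour (B6 blue, KI red). The B6 regions form 8 blocks and the KI regions 19 over the gene. Far beyond the other regions, a single KI region lies 306 kb from the 5′ end.

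Past the end of Mei4-001 the remaining 179 kb were almost without the mark. Coverage there was 2.75% in B6 and 2.47% in KI. In B6 it came from 1 block that ran 4.9 kb past the end of the main transcript. In KI it came from 3 pieces of at most 2.0 kb, 1 of which lay 306 kb from the 5′ end and held a refined peak at chr9:82063308-82063631. The lincRNA gene Gm16875 on the opposite strand overlaps the first 227 bp of Mei4, and the pseudogene Gm15896 lies near its end, and both were at 0.0% in the 2 strains.

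A difference in this direction was common among partly covered genes. Of the 5730 protein-coding genes with a mean coverage of 20% to 90% over the strains, 59.8% were covered more in B6, and the median difference (B6 minus KI) was 4.56 percentage points. Mei4 differed by 18.8 points, and 18.3% of those genes differed by at least as much in the same direction. Among the 705 such genes of at least 100 kb, 622 were covered more in B6, the median difference was 11.4 points and 26.7% differed by at least as much as Mei4. Over the main transcript, however, the difference at Mei4 was 39.1 points, and few genes reached that. With the same span for every protein-coding gene, a comparison added after the data were seen, 276 of 5394 partly covered transcripts (5.12%) and 7 of the 609 of at least 100 kb (1.15%) differed by as much or more, Mei4 included. Its place among other genes thus depends on the span that is taken. Of the 6 Sertoli cell markers 5 were also covered less in KI (Fshr was not), and their part in the difference at Mei4 was not tested.

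Mei4 held about the same number of refined peaks in both strains, although its coverage differed. Its listed regions, each with at least 1 refined peak, were also similar in number, 24 in B6 and 23 in KI. Up to the end of the main transcript there were 1.59 peaks per 10 kb in B6 and 1.53 in KI. The B6 peaks were 119 bp to 556 bp wide and the KI peaks 131 bp to 1146 bp. Of the 28 B6 peaks, 5 shared bases with a KI peak, and of the 27 KI peaks 6 shared bases with a B6 peak. For 1 of these KI peaks, at chr9:81873244-81873629, the overlap was 1 base. It would not count if starts were read from 0. In Mei4, 11 B6 peaks and 2 KI peaks lay outside the broad regions of the other strain, and 1 B6 peak lay partly outside. Every peak in the other 5 genes lay wholly inside such a region. Those genes were covered to at least 82.4% in both strains, which left little room outside. The same shares over all protein-coding genes are not given here.

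In Mei4 few refined peaks touched an exon, 2 in each strain. Exon 3 held the pair that coincided most fully: the KI peak, 285 bp at chr9:81820969-81821253, lay wholly inside the B6 peak, 415 bp at chr9:81820851-81821265. The others were in exon 5, a KI peak at chr9:81919567-81919779 and a B6 peak at chr9:81920868-81921143 that did not meet. The shared exon 3 peak is printed because it is the place in the 6 genes where an exon and a refined peak of both strains met. Its 285 bases are from the plus strand of mm9, with the 272 bases of exon 3 in capitals and the start of intron 3 in lower case. It has 36.1% GC and 1 CpG.
Mei4 exon 3, shared peak: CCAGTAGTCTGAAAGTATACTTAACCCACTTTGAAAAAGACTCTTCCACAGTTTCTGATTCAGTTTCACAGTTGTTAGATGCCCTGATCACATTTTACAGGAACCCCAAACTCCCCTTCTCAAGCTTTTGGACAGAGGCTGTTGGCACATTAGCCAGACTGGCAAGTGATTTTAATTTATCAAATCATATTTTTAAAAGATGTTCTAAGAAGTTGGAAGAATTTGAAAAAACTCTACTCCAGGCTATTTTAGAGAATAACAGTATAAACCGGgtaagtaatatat

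The distance from a refined peak to the nearest one of the other strain had a median of 1115 bp for the 37 B6 peaks and of 876 bp for the 39 KI peaks. The B6 peak of Trip13 was 22259 bp from the nearest KI peak. In Mei4 the medians were 863 bp for B6 and 736 bp for KI, and in Mei1 1490 bp for B6 and 8684 bp for KI. The longer median in Mei1 belongs to its 9 KI peaks, which had only 3 B6 peaks in the gene to lie near. The same distances over refined peaks of all genes are not given here.

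**Figure D4:**
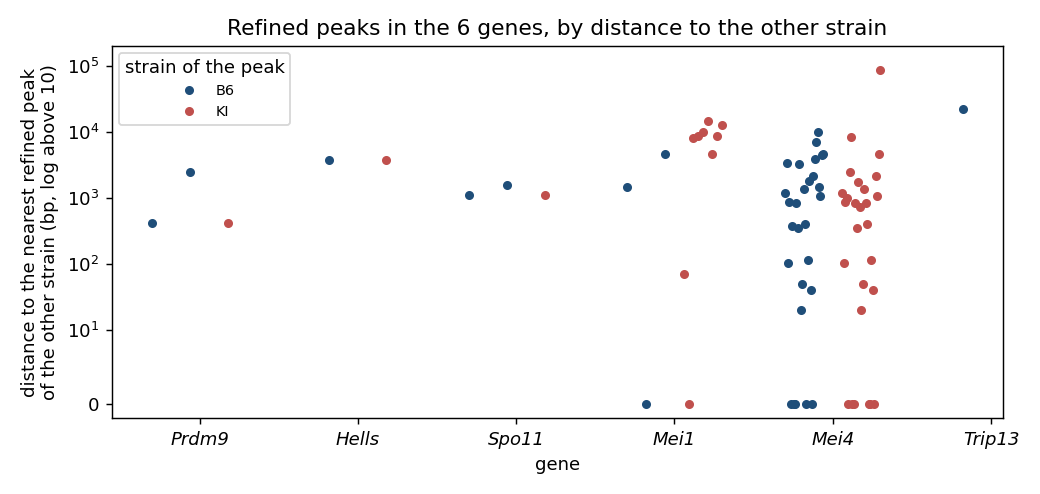
Distance in bp from each refined peak in the 6 genes to the nearest refined peak of the other strain, on an axis that is logarithmic above 10 bp, with 1 point per peak (B6 blue, KI red) and genes side by side. Points at 0 are the 6 B6 and 7 KI peaks that share bases with the other strain, all in Mei1 and Mei4.

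Other genes listed as linked to break formation had H3K36me3 regions of the same kind. Of a list of 11 genes, 10 were found in the annotation, and Ankrd31 was not analysed here. In each strain 7 of the 10 were covered to at least 90%, with medians of 98.0% in B6 and 96.3% in KI, against the 26.5% and 23.6% of all protein-coding genes that were covered that far. Ccdc36, which encodes IHO1, and Hormad1, which encodes a protein of the chromosome axis, were covered from end to end in both strains. Gm960, which encodes the TOPOVIBL partner of SPO11, was at 97.4% in B6 and 95.4% in KI. Rec114, annotated as 2410076I21Rik, encodes the partner of MEI4 and was 1 of the 3 below 90%, at 68.0% and 47.2% of its 88.7 kb. Like Mei4 it was covered more in B6, and had 13 (B6) and 10 (KI) refined peaks. The others were Cdyl, which encodes a chromodomain protein and was lowest, at 59.3% and 42.5%, and Cxxc1, which encodes a CpG-binding protein of the SETD1 complex, at 86.6% in both strains. Zcwpw1, which encodes a reader of the histone marks that PRDM9 writes, was at 98.6% and 97.2%. Ewsr1 and Atm were at 99.1% and Ehmt2 at 93.0% in both strains. The list thus reaches beyond the proteins that make breaks, and its shares are not those of a set confined to them.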

How the data were processed

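H3K36me3 ChIP-seq of mouse spermatocytes was deposited for 4 samples, an H3K36me3 sample and an input for each of B6 and KI. Per the labels, the authors fragmented chromatin with MNase and aligned reads with BWA 1.2.3 to mm9. The authors merged the replicates of a strain and called broad (unrefined) and narrow (refined) peaks with ZINBA against the input. The deposited lists hold only chromosome, start and end. The inputs have no list of their own here. Broad starts lie on a grid of 500 bp plus 1, and positions were taken as 1-based, the end base included.

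Each broad region was listed once per refined peak in it, so regions were merged before coverage was computed over GENCODE vM1 genes (mm9). A refined peak belonged to a gene by an overlap of at least 1 bp. The main transcript is the one with the longest coding sequence. Sequences were read from mm9. Python 3.11.15, numpy 2.4.6, pandas 2.3.3, scipy 1.17.1 (Wilson 95% intervals) and matplotlib 3.10.9 were used. The code was tested on simulated data, where the coverage of 200 of 200 genes was recovered.

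All 6 genes are reported, with a list of 11 further genes linked to break formation and with neighbours within 5000 bp. The genes and lists were chosen with earlier results of these data known. With 1 pooled list per strain no test was made. Other gene spans, gap closing, coverage limits and rules for overlap were tried as alternatives.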

Additional observations from a re-analysis of the deposited data

How the results depend on the processing

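No paired analysis was possible because each strain has 1 pooled list, and for the same reason no replicate could be left out and no test was made. Of 26 alternative counts over the 6 genes, 20 stayed within 1.5 times the reported count. With a limit of 95% in place of 90%, 2 genes in KI were covered that far. Counting refined peaks within 500 bp as shared gave 15 B6 and 16 KI peaks, and counting broad regions of the other strain gave 26 and 37. Shares over all protein-coding genes under these 2 rules are not given here, so the counts cannot be set against a background. With the midpoint of the peak in an exon, 2 KI peaks counted as exonic. Why these counts moved follows from each changed rule, and no other cause was tested. Of 60 alternative shares of single genes, 49 stayed inside the 95% binomial interval of the reported share, counted over bins of 500 bp. Neighbouring bins of a region are not independent, so that interval served only as a yardstick and not as an error. Over the span of the transcript with the longest coding sequence, a choice made after seeing the data, Mei4 stood at 86.7% in B6 and 47.7% in KI and Spo11 at 95.3% in both. Over the longest protein-coding transcript, Mei4 stayed at 42.9% and 24.1%. The lists hold no counts. The study's methods give more aligned reads for KI than for B6, and the part of depth in the differences between the lists was not tested. A difference between the strains in how much was called cannot be told apart from a difference in the mark.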
